A study of Saccharomyces cerevisiae with 4 samples.

Results

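The nucleotide sugar supply for chitin and mannan was followed over 10 yeast genes, taken by gene symbol from the annotation of an array devoted to cell wall genes. The route to UDP-N-acetylglucosamine and chitin held 5 of them (GNA1, PCM1, QRI1, CHS3 and SKT5), and the route to GDP-mannose and mannan the other 5 (PSA1, OCH1, MNN9, KTR2 and KTR6). Each had 2 features, so the members made up 20 of the 896 features of the table and 10 of its 353 named genes. All 10 were among the 345 genes with values on at least 3 arrays, which were the genes tested.

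The series held 4 self-self arrays, called yellow experiments by the submitters. On each, cDNA of the same untreated total RNA was labelled with Cy3 and with Cy5 and hybridised together, so equal channels give a log2 ratio of 0. The RNA came from BY4741, an auxotrophic haploid laboratory strain of Saccharomyces cerevisiae, mating type a, grown in the rich medium YEPD at 24 °C and collected 6 h after dilution to an optical density of 0.2. No treatment, mutant or other strain entered any array. The labels do not say whether separate cultures were used, so p-values cover only the variation among 4 arrays, which may be technical, and the number of arrays limits the precision.

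The values were deposited log2 ratios, centred here on each array's median and averaged over the features of a gene. The deposited medians lay between -0.25 and -0.058, and centring raised a gene with values on every array by 0.18 on average. Signs follow the ratio as deposited; the sources used here do not state the dye in its numerator. Over all features Pearson's r between 2 arrays ran from 0.201 to 0.42 for the 6 pairs, across features that are not independent replicates, so no array ran against the others. A ratio of a sample against itself carries no transcript level, so neither RNA per cell nor number of cells was measured, and markers of the mating type could not be checked as levels. Of the a-cell genes, AGA2 and MFA1 had mean log2 ratios of 0.71 ± 0.123 and 0.074 ± 0.184 (SD, n = 4). The alpha-cell gene SAG1 had -0.33 ± 0.106 (SD, n = 4). The means of the 5 sporulation genes tested ran from -0.15 to 1.42, the highest over 3 arrays. In the limma fit given below, AGA2 and SAG1 passed at adjusted p-values of 0.0248 and 0.0467. So did the sporulation genes SPR1 and GAS4, both higher, at 0.0347 and 0.0372, where 24.9% of all genes passed. MFA1 and the other sporulation genes did not pass.

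Chitin is a polymer of N-acetylglucosamine that lies mostly in the bud neck ring and the bud scar of a growing yeast cell. Its precursor, UDP-N-acetylglucosamine, is made from fructose 6-phosphate by GFA1, GNA1, PCM1 and QRI1 in turn, and also feeds protein N-glycosylation and the anchors of GPI proteins. Mannan is the long mannose chain of wall glycoproteins. PSA1 makes its donor, GDP-mannose, which is carried into the Golgi, where OCH1, the MNN9 complexes and the KTR family extend the chain.

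In a limma fit over all 345 genes, 86 genes, or 24.9%, departed from 0 at an adjusted p under 0.05. Of the 10 members, 5 did so. GNA1 and PCM1 were higher, against 10.7% of all genes that were called higher, and QRI1, PSA1 and MNN9 were lower, against 14.2%. The 4 members that make nucleotide sugars were all called, with GNA1 and PCM1 above 0 and QRI1 and PSA1 below. Neither member of chitin synthase passed, and of the 4 Golgi members MNN9 alone did. At an unadjusted p under 0.05 there were 8 of the 10 members, and 41.4% of all genes.

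These calls needed every array. Without array 1, 2, 3 or 4, limma called 0, 0, 1 and 0 genes of the table and none of the 10 members, whose smallest adjusted p was then 0.0653. Between 6 and 8 of the members had an unadjusted p under 0.05 in those fits, and between 114 and 119 of all genes. Without centring, where the calls over all genes were 21 higher and 91 lower in place of 37 and 49, 0 members were higher and 5 were lower, namely QRI1, PSA1, MNN9, KTR2 and KTR6. Higher calls then made up 6.09% and lower calls 26.4% of all genes.

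**Figure D1:**
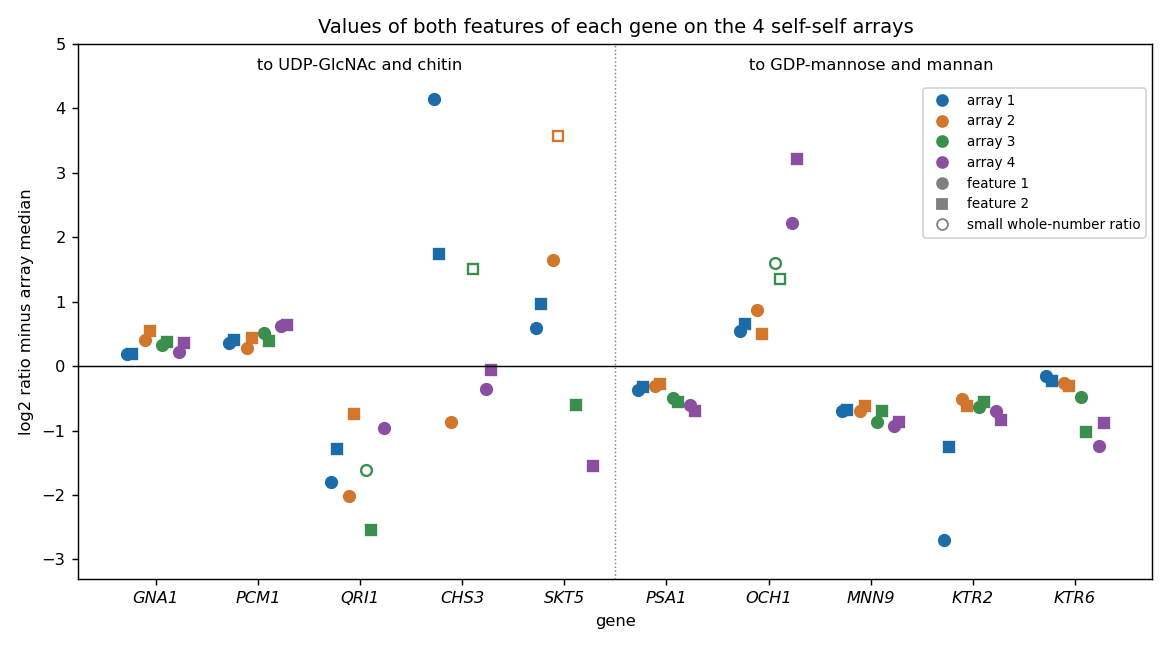
Log2 ratio minus the array median (vertical axis) of both features (circles and squares) of the 10 genes (horizontal axis) on the 4 self-self arrays (colours); open symbols are ratios of small whole numbers. GNA1, PCM1, PSA1 and MNN9 form tight groups on 1 side of 0, while CHS3 runs from -0.86 to 4.15 and SKT5 from -1.54 to 3.57.

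GNA1 (YFL017C) encodes the acetyltransferase that converts glucosamine 6-phosphate to its N-acetyl form. Its centred log2 ratios were 0.19, 0.48, 0.35 and 0.29 on arrays 1 to 4. All 8 feature values lay above 0, array 1 was the lowest and array 2 the highest. The mean was 0.32 ± 0.121 (SD, n = 4), a 1.25-fold departure with a 95% interval of 1.08 to 1.45, and the adjusted p in limma was 0.0485. This is close to the threshold, GNA1 being number 80 of the 86 called genes by p. Its 2 features tested on their own, over 825 features of which 19.6% were called, had adjusted p-values of 0.0617 and 0.0536. Without centring the mean was 0.14 with an adjusted p of 0.184, and 1 feature on array 4 read -0.025.

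PCM1 (YEL058W), the phosphoacetylglucosamine mutase that moves the phosphate to the position from which UDP can be attached, gave 0.38, 0.36, 0.45 and 0.64 on arrays 1 to 4. The first 2 arrays were nearly level and array 4 was the highest. The mean was 0.46 ± 0.126 (SD, n = 4), or 1.37-fold with an interval of 1.19 to 1.59, at an adjusted p of 0.0347. Both features passed on their own, at adjusted p-values of 0.0435 and 0.0383. As deposited the mean was 0.27 with an adjusted p of 0.0617.

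QRI1 (YDL103C) encodes the pyrophosphorylase that joins the sugar phosphate to UTP and so makes UDP-N-acetylglucosamine, the last step shared by chitin, glycoprotein and GPI anchor synthesis. It read -1.54, -1.38, -2.08 and -0.95 on arrays 1 to 4, and array 4 rested on 1 feature because the other had no value there. Every array lay below 0, and 3 of the 4 lay beyond 2-fold. The mean of -1.49 ± 0.467 (SD, n = 4), a 2.81-fold departure with an interval of 1.93 to 4.09, was the farthest from 0 of the 10 members. Only 2 of the 345 genes had a lower mean. The adjusted p in limma was 0.0336.

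The features of QRI1 disagreed in size though not in sign. Feature 1 gave -1.80, -2.02, -1.62 and -0.95, and feature 2 gave -1.28, -0.74 and -2.55 with no value on array 4. The lower feature was feature 1 on arrays 1 and 2 and feature 2 on array 3. Their mean absolute difference was 0.909 over 3 arrays, number 21 from the widest of 341 genes. Feature 1 passed on its own at an adjusted p of 0.0329 and feature 2, with 3 arrays, did not, at 0.0900. With the duplicates kept as separate columns and the array as a random block, QRI1 did not pass, at an adjusted p of 0.0621, while 32.2% of genes did.

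CHS3 (YBR023C) encodes the catalytic subunit of the chitin synthase that makes most of the cell's chitin. It read 2.94, -0.86, 1.51 and -0.20 on arrays 1 to 4, above 0 on arrays 1 and 3 and below on arrays 2 and 4. Arrays 2 and 3 each rested on a single feature. The mean was 0.85 ± 1.72 (SD, n = 4), with a 95% interval of -1.07 to 2.76 on the log2 scale and an adjusted p of 0.436. On array 1 its features read 4.15 and 1.74, both far above 0 but 2.41 apart.

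SKT5 (YBL061C) encodes an activator of CHS3 that links it to the bud neck. Its values were 0.77, 2.61, -0.60 and -1.54 on arrays 1 to 4, and feature 1 had no value on arrays 3 and 4. It was thus above 0 on the arrays with both features and below 0 on the others. The mean was 0.31 ± 1.81 (SD, n = 4), with an interval of -1.70 to 2.32 and an adjusted p of 0.795. Without array 2 the mean was -0.46. Where CHS3 was highest, on array 1, SKT5 read 0.77, and where SKT5 was highest, on array 2, CHS3 was at its lowest.

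PSA1 (YDL055C), the GDP-mannose pyrophosphorylase, performs on mannose the kind of reaction that QRI1 performs on N-acetylglucosamine. It gave -0.34, -0.29, -0.53 and -0.65 on arrays 1 to 4, with all 8 feature values below 0. Arrays 3 and 4 were lower than arrays 1 and 2. The mean was -0.45 ± 0.168 (SD, n = 4), a 1.37-fold departure with an interval of 1.16 to 1.62, at an adjusted p of 0.0394. Its features differed by 0.0592 on average, the closest pair of the 10 members, and passed on their own at adjusted p-values of 0.0417 and 0.0497.

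OCH1 (YGL038C) encodes the Golgi mannosyltransferase that adds the first mannose of the outer chain. It read 0.60, 0.69, 1.48 and 2.72 on arrays 1 to 4. All 8 feature values lay above 0, and arrays 3 and 4 lay beyond 2-fold. The mean of 1.37 ± 0.980 (SD, n = 4) was 2.59-fold with an interval of 1.21 to 5.55, but the adjusted p was 0.0763. It passed in 1 of 11 other settings that kept all arrays and the threshold of 0.05 and tested it, the one with duplicates as separate columns, at an adjusted p of 0.0392. Its features on array 4 were 0.994 apart, at 2.22 and 3.21, and without array 4 its mean was 0.92.

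MNN9 (YPL050C) is a subunit of both Golgi complexes that lengthen the mannan backbone. Its values were -0.69, -0.66, -0.78 and -0.90 on arrays 1 to 4, the narrowest range of the 10 members, and all 8 feature values lay between -0.93 and -0.62. The mean of -0.76 ± 0.108 (SD, n = 4) was a 1.69-fold departure with an interval of 1.47 to 1.94. Its adjusted p was 0.0207, and only 4 of the 345 genes had a smaller p. Both features passed on their own, each at an adjusted p of 0.0256. It was called in 12 of 12 other settings that kept all arrays and the threshold of 0.05, and as deposited its mean was -0.94.

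KTR2 (YKR061W), a mannosyltransferase of the KRE2 family, gave -1.98, -0.56, -0.59 and -0.77 on arrays 1 to 4. Every array lay below 0, and array 1 stood far below the other 3. On array 1 its features read -2.70 and -1.25, and on the other arrays all feature values lay between -0.84 and -0.50. The mean was -0.98 ± 0.675 (SD, n = 4), a 1.97-fold departure with an interval of 1.16 to 3.34, at an adjusted p of 0.0745. Without array 1 the mean was -0.64, the SD fell to 0.111 and the adjusted p was 0.0661, with 3 arrays. Feature 2 on its own passed at 0.0416 and feature 1 did not, at 0.136.

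KTR6 (YPL053C), of the same family, is needed to add mannosylphosphate to mannan. It read -0.19, -0.29, -0.75 and -1.06 on arrays 1 to 4, all below 0, with arrays 3 and 4 lower than arrays 1 and 2. The mean was -0.57 ± 0.406 (SD, n = 4), or 1.49-fold with an interval of 1.07 to 2.07, at an adjusted p of 0.0809, and neither feature passed on its own. In the R64 annotation 2 protein-coding genes lie between KTR6 and MNN9. Over the 209 genes with neither a missing value nor a ratio of small whole numbers on any array, KTR2 and KTR6 were both lower, at adjusted p-values of 0.0230 and 0.0300, where 25.4% of those genes were lower.

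**Figure D2:**
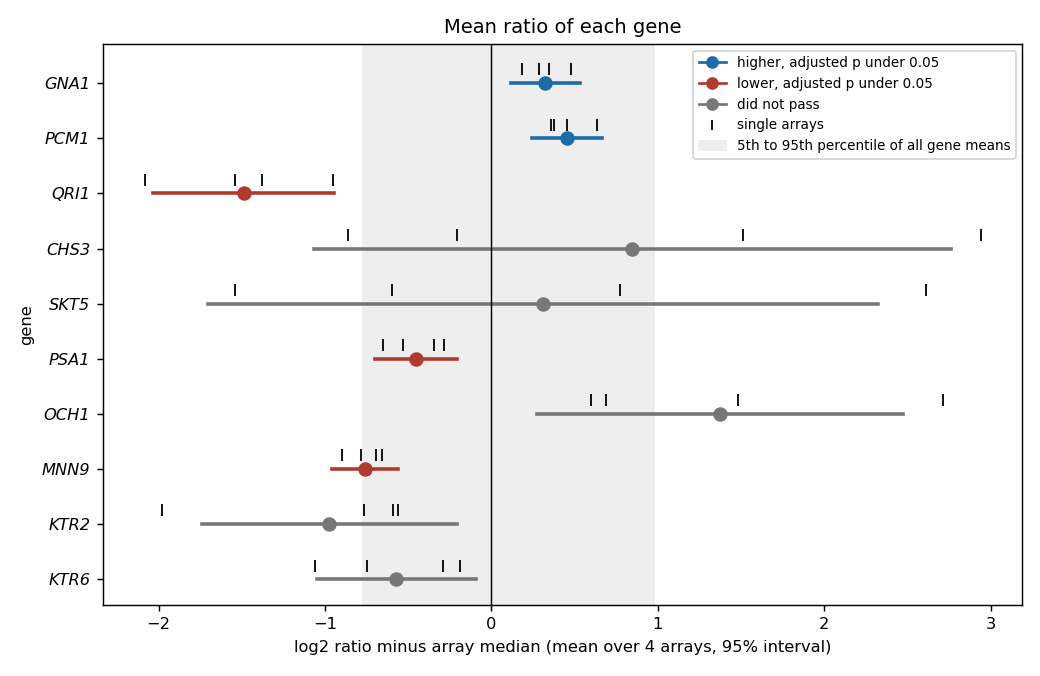
Mean log2 ratio minus the array median (horizontal axis, points) with the 95% interval from limma (lines) for the 10 genes, and the 4 single arrays (ticks). The intervals of CHS3 and SKT5 span 0, those of the other 8 do not, and QRI1, KTR2 and OCH1 have means outside the grey band from -0.77 to 0.98, the 5th to 95th percentile of all gene means.

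Members were compared in pairs on the same array, which takes out the array median. PSA1 and QRI1 were paired across the routes. With 4 arrays an exact sign-flip test cannot give a two-sided p below 2 of 16 sign patterns, or 0.13, so none of the 6 pairs could pass. QRI1 lay below PCM1 on every array, by -1.92, -1.74, -2.54 and -1.59, with a mean of -1.94 ± 0.416 (SD, n = 4; exact p = 0.13, adjusted p = 0.25 over 6 pairs). The pair holds consecutive enzymes of the same pathway, called on opposite sides of 0 in these same data. The gap on every array was larger than the SD over arrays of either gene, which is no test. The same held for OCH1 and MNN9, with gaps from 1.29 to 3.62.

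PSA1 lay above QRI1 on all 4 arrays, by 1.04 ± 0.528, and OCH1 above MNN9, by 2.13 ± 1.09 (SD, n = 4; exact p = 0.13 and adjusted p = 0.25 for each). PCM1 and GNA1 differed by 0.13 ± 0.193 (SD, n = 4; exact p = 0.375, adjusted p = 0.5625), with PCM1 the higher on 3 of 4 arrays. CHS3 exceeded SKT5 by 0.54 ± 2.70, above 0 on 3 of 4 arrays, and KTR2 lay below KTR6 by -0.40 ± 0.954 (SD, n = 4; exact p = 0.75 and adjusted p = 0.75 for each). Without array 1 these last differences were -0.0072 and 0.059. With 4 arrays the test could not settle the order in any of the 6 pairs. For CHS3 and SKT5, and for KTR2 and KTR6, the sign of the mean difference also changed without array 1.

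The 10 genes fell far apart in their spread between arrays. MNN9, GNA1, PCM1 and PSA1 had SDs of 0.108, 0.121, 0.126 and 0.168, all below the median of 0.236 over the 345 genes. KTR6, QRI1, KTR2 and OCH1 followed at 0.406, 0.467, 0.675 and 0.980. CHS3 and SKT5, at 1.72 and 1.81, were number 13 and number 11 from the widest of 345. A gene's call and its spread are not separate measures, since the test divides the mean by the spread.

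The difference between duplicate features, which the averaged values do not show, was smallest in the same 4 genes and largest in CHS3. It averaged 0.0592 for PSA1, 0.0793 for MNN9, 0.0795 for PCM1 and 0.0829 for GNA1, against a median of 0.113 over all tested genes with 2 features. KTR6, OCH1 and KTR2 had 0.258, 0.426 and 0.450. QRI1, SKT5 and CHS3 had 0.909, 1.15 and 1.35, the last 2 over the 2 arrays on which both features had a value. For KTR2 most of this lay on array 1, where the features were 1.45 apart against 0.0837 to 0.144 on the others. Features of a gene stood in adjacent rows of the table, so their agreement may include what neighbouring spots share, which was not tested.

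**Figure D3:**
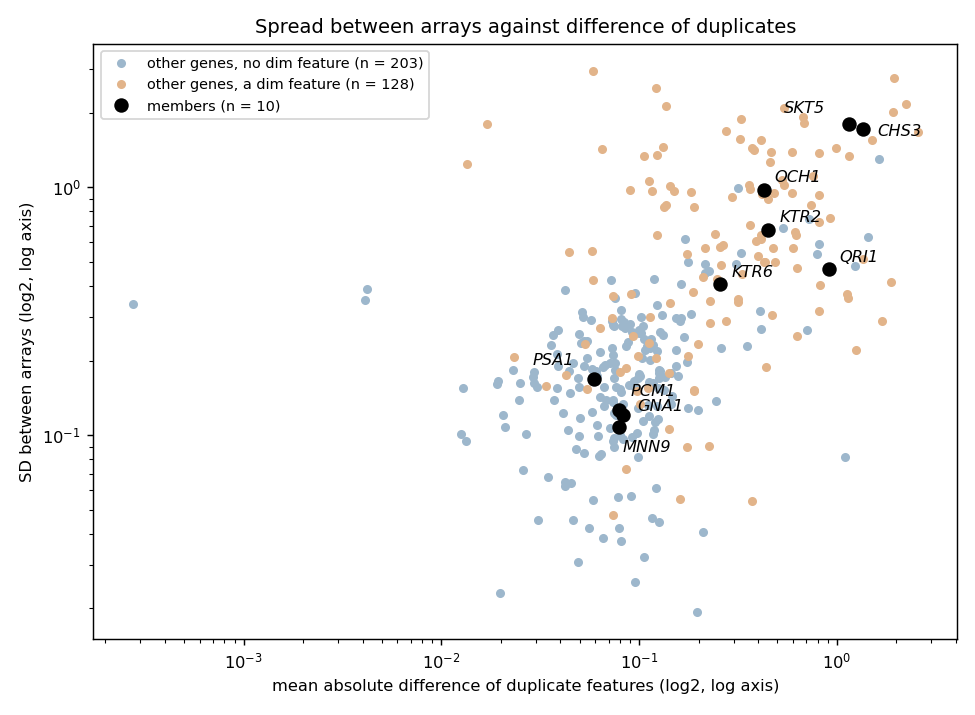
SD between arrays (vertical log axis, log2 units) against the mean absolute difference of duplicate features (horizontal log axis, log2 units) for 341 genes; black points are the 10 members, and orange points are other genes with a missing value or a small whole-number ratio on some array. PSA1, PCM1, GNA1 and MNN9 lie at low values of both, and CHS3 and SKT5 in the upper right corner.

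Missing values were counted as a further sign of how well a feature was measured. Of the 80 positions of the members 5 held no value, or 6.25%, near the 5.46% of all named features. They were all on the chitin route: 2 in CHS3, 2 in SKT5 and 1 in QRI1. The 2 genes of chitin synthase lacked 4 of 16 values, and the mannan route lacked 0 of 40. The contrast lay in these genes and not in the wider pathways. On the lists given below, the other tested chitin genes lacked 0 of 40 values and the other tested mannan genes 1 of 32.

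Some deposited values were the log2 of a small ratio, 1 whole number up to 10 over another, within 0.00005. In all, 373 of 3297 values did so, or 11.3%, and after shifting all values by 8 constants a mean of 0.13% did. Among the members 5 of 75 values did so, or 6.67%, close to the 7.2% of all named features. Feature 1 of QRI1 on array 3 equalled 2 over 7, feature 2 of CHS3 on array 3 equalled 5 over 2, and feature 2 of SKT5 on array 2 equalled 10 over 1. The features of OCH1 on array 3 equalled 8 over 3 and 9 over 4. The highest value of SKT5 was thus 1 of these ratios, and setting them to missing brought its mean to 0.071 and that of CHS3 to 0.63.

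A gene with a missing value or such a ratio on any array is called dim here, without intensities having been seen. By that definition QRI1, CHS3, SKT5 and OCH1 were dim, 4 of the 10 members against 39.4% of all tested genes. The 6 others (GNA1, PCM1, PSA1, MNN9, KTR2 and KTR6) had a median SD of 0.147, and the dim members one of 1.35. Over all genes the medians were 0.173 without and 0.581 with a dim feature. The part that signal strength had in the wide spread of CHS3 and SKT5 was not tested.

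Of the members, 8 kept the same sign in every feature value, where 44.1% of all genes did. CHS3 and SKT5 were the exceptions. Averaged per gene, 11 of the 40 member values lay beyond 2-fold, or 27.5%, against 13.1% of all gene values. These were 3 of QRI1, 2 each of CHS3, SKT5 and OCH1, and 1 each of KTR2, on array 1, and KTR6, on array 4. After centring, the ratio of KTR2 was thus beyond 2-fold on array 1 alone, and that of KTR6 on array 4 alone. Neither gene passed over 4 arrays.

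On the mannan route PSA1, MNN9, KTR6 and OCH1 each lay farther from 0 on arrays 3 and 4 than on arrays 1 and 2. OCH1 moved the opposite way from the others, as it lay above 0 and they lay below. KTR2 did not have this order, as its farthest array was array 1. Nor did any of the 4 other tested genes of the mannan list given below. Of these, HOC1 (-0.175, -0.163, -0.0925 and -0.0623 on arrays 1 to 4) and VAN1 lay closer to 0 on arrays 3 and 4. The order was thus not shared by the route as a whole. AGA2, outside the route, also lay farther from 0 on arrays 3 and 4. So did MRE11, but it was named only because it lay nearest to PSA1 over the 4 arrays. The share over all genes was not counted. On the chitin route the highest array was array 2 for GNA1 and SKT5, array 4 for PCM1 and QRI1, and array 1 for CHS3. With 4 arrays these orders were not tested.

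Further genes of both pathways were read from lists of known enzymes, which also hold the 10 members. Of 23 names on the amino sugar and chitin list 10 were on the array and tested. GNA1, PCM1 and UTR2, a transglycosylase that links chitin to glucan, were higher, and QRI1 was lower. The list median was 0.26, against -0.043 over all genes, of which 10.7% were called higher and 14.2% lower. Without the members the median of the other 5 genes was 0.14, with 1 called higher and 0 lower. UTR2 read 0.33, 0.21, 0.25 and 0.35 on arrays 1 to 4, with a mean of 0.28 ± 0.0644 (SD, n = 4) and an adjusted p of 0.0467. As deposited 0 of the 10 were higher and QRI1 was lower.

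The other chitin genes did not pass. GFA1, the enzyme that opens the pathway, read -0.35, 0.14, 0.084 and -0.29 on arrays 1 to 4, with a mean of -0.10 ± 0.250 (SD, n = 4). It thus lay between PCM1 and QRI1. CHS1, a repair chitin synthase, read 0.089, -1.81, 0.26 and 0.32, low on array 2 alone. CHS7, a chaperone that lets CHS3 leave the endoplasmic reticulum, and CRH1, a relative of UTR2, had means of 0.14 ± 0.266 and 0.23 ± 0.265 (SD, n = 4).

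Of 47 names on the list of GDP-mannose, dolichol and mannan genes, which holds KTR6 also under its other name MNN6, 10 were on the array, and 9 were tested, since ALG9 had values on 2 arrays. PSA1, MNN9 and ALG12, a mannosyltransferase of the lipid-linked oligosaccharide, were lower and 0 were higher. Over all genes 10.7% were called higher and 14.2% lower. The median was -0.45, and 8 of the 9 means lay below 0, against 186 of 345 over all genes. Without the members the median of the other 4 genes was -0.245. All 4 of these means lay below 0, and 1 gene was called lower. ALG12 read -0.83, -0.58, -0.19 and -0.83 on arrays 1 to 4, with a mean of -0.61 ± 0.300 (SD, n = 4) and an adjusted p of 0.0467. As deposited 7 of the 9 were lower, where 26.4% of all genes were.

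VAN1, a partner of MNN9 in the complex that starts the mannan backbone, read -0.93, -0.68, 0.26 and -0.11 on arrays 1 to 4. It was lower than 0 on 3 arrays but, unlike MNN9, closer to 0 on arrays 3 and 4, and did not pass at a mean of -0.37 ± 0.541 (SD, n = 4). HOC1, in the other MNN9 complex, had -0.12 ± 0.0546, and KRE2, the name gene of the family of KTR2 and KTR6, had -0.10 ± 0.0256 (SD, n = 4). Neither passed on the centred values, and both were lower as deposited, at adjusted p-values of 0.0368 and 0.0450.

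The genes most like each called member over the 4 arrays were found by the mean absolute difference of the centred ratios, among the other 326 genes with values on every array. Nearest to MNN9 were DDR48, RPC34 and ECL1, at 0.0742, 0.0809 and 0.112. Nearest to PSA1 were MRE11, INP53 and PLB1, at 0.0725, 0.112 and 0.123. GNA1 had FIG2, REE1 and EGT2 within 0.0907, and PCM1 had PRY2, MET17 and YET1 within 0.0841. QRI1 had no gene so near: ECM16, KCS1 and YAP1801 came at 0.603, 0.670 and 0.697, and all 3 had a dim feature. Of the genes near the other members, PLB1 and MET17 had a dim feature too.

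**Figure D4:**
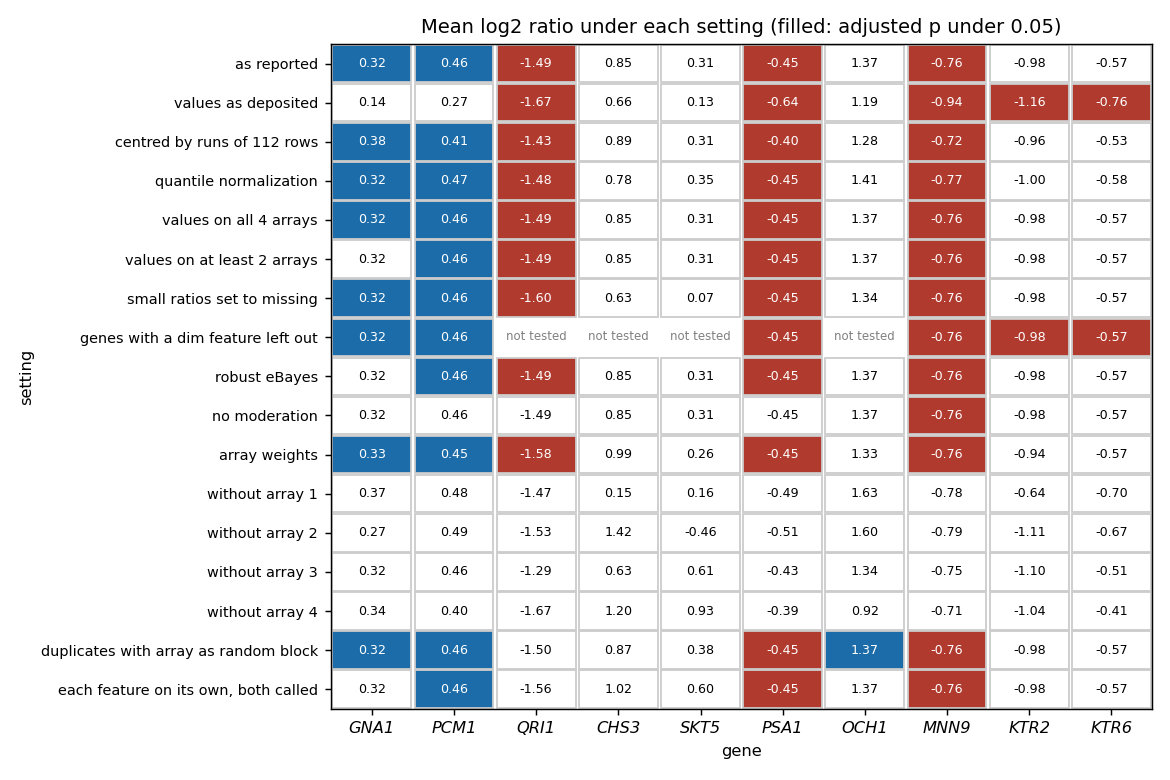
Mean log2 ratio of the 10 genes (horizontal axis) under the reported fit and 16 other settings (vertical axis), filled blue for higher and red for lower where the adjusted p was under 0.05. MNN9 is filled in every row that keeps all 4 arrays, and no gene is filled in the 4 rows that leave out an array.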

How the data were processed

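The deposited table gave 1 log2 ratio per feature and array. That the authors' values are log2 was read from the values themselves, and the sources used here do not give scanner, background correction, filters, normalization or numerator dye. Channel intensities were not used, so neither saturation nor signal over background is known. Gene symbols came from the platform annotation, and all 724 features with 1 gene matched the R64 gene table by Entrez identifier. No coordinates are printed, since no build was named. The 4 arrays formed 1 group.

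Arrays were centred on their medians, features averaged per gene, and each gene measured on 3 or more arrays tested against 0 with limma (lmFit, eBayes), two-sided, the p-values being adjusted over all genes by Benjamini-Hochberg. The prior had 1.38 degrees of freedom. The steps were tested on simulated data. For the limma fit these were independent normal values with spreads drawn from these genes. They held no duplicate features and no small whole-number ratios, so they do not cover those. The members, lists and rules, among them the definition of a dim gene, were chosen with earlier results of these data known. Named genes were the members, the 3 nearest genes of each called member and the listed pathway genes. AGA2, MFA1, SAG1 and the sporulation genes came from a marker list. Alternatives covered centring, normalization, filters, duplicates, variance prior, weights, thresholds and each array left out. R 4.3.3, limma 3.58.1, Python 3.11.15, pandas 2.3.3 and matplotlib 3.10.9 were used.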

Additional observations from a re-analysis of the deposited data

Results flagged for a closer look

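Among 26 sets of 4 member values (gene averages and single features), 3 had 1 array whose gap to the nearest other took up more of the whole range than Dixon's 95% critical value for 4 samples. Chance flags about 1 in 20 such sets where values are normal. The member sets overlap, since a gene average holds its single features. Of all genes with values on every array, taken as gene averages only, 24 of 327, or 7.34%, had such an array. KTR2 had array 1 apart at -1.98 for the gene average and -2.70 for feature 1. PCM1 had array 4 apart at 0.64 in feature 2, while its gene average was not set apart.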

How the results depend on the processing

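Over the 345 genes 86 were called, of which 2 members were higher and 3 lower, 3 on the chitin route and 2 on the mannan route. With each array left out the calls over the table ran from 0 to 1, and those of members higher, members lower, the chitin route and the mannan route were 0 to 0. As deposited 0 members were higher and 5 lower, with 1 on the chitin and 4 on the mannan route. Without moderation of the variance 25 genes were called, with 0 members higher and 1 lower (MNN9), 0 on the chitin and 1 on the mannan route. Requiring both features to pass left 47 genes, with 1 member higher and 1 on the chitin route called. With values on at least 2 arrays, and with robust eBayes, 1 member was higher, where 80 of 353 and 62 of 345 genes were called. Leaving out genes with a dim feature gave 4 calls on the mannan route, and 93 of 209 genes were called. At an adjusted p of 0.1, where 128 of 345 genes were called, 5 members were lower and 5 on the mannan route were called, and at 0.01 all 5 counts were 0. GNA1 and PCM1 were called in 7 and 10 of 12 settings that kept all arrays and the threshold, QRI1 in 8 of 11, PSA1 in 11 and MNN9 in 12 of 12, KTR2 and KTR6 in 2 of 12 each, OCH1 in 1 of 11, and CHS3 and SKT5 in 0 of 11. With whole numbers up to 5, 1 member value and 223 of the table were small ratios, and with numbers up to 20, 11 and 561. With 1 array left out SKT5 ran from -0.46 to 0.93, CHS3 minus SKT5 from -0.0072 to 1.87, and KTR2 minus KTR6 from -0.63 to 0.059. Why fewer arrays or another setting ended a call was not tested. No paired analysis was possible because the arrays form 1 group, with no other to pair them with. The pair differences compare genes within an array, not groups.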
